A study of Drosophila melanogaster with 16 samples.

Results

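The genes described here are the nuclear genes of the fly whose symbols name a subunit of the mitochondrial respiratory chain or of ATP synthase. They were chosen by name alone, as every gene symbol that begins with ND-, UQCR, COX or ATPsyn, and 73 of the 16074 genes in the deposited tables carry such a name. Of these, 39 belong to complex I (ND-), 8 to complex III (UQCR), 11 to complex IV (COX) and 15 to ATP synthase (ATPsyn). In 16 of them the symbol ends in L, or in L and a digit, which marks a second gene for the same kind of subunit, and these L copies are described as a class of their own. The other 57 genes, called members below, comprise 33 of complex I, 6 of complex III, 7 of complex IV and 11 of ATP synthase.

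The study asked how the Male Specific Lethal (MSL) complex, which binds the X chromosome of male flies, acts on gene expression in larvae with an unbalanced genome. RNA of whole third-instar larvae of Drosophila melanogaster, raised at 25 °C, was sequenced. Trisomy 2L females and males carry 3 copies of the left arm of chromosome 2. Their mothers carried the compound chromosome C(2L)dp with F(2R) bw and their fathers were of the Canton S strain, and since larvae with a single 2L die early, only trisomic ones reached the third instar. Metafemales carry 3 X chromosomes and came from C(1)DX, ywf/winscy mothers and Canton S fathers. The MSL2-trisomy 2L females, MSL2-trisomy 2L males and MSL2-metafemales came from the same mothers, but their fathers were homozygous for transgenes on 2R that express MSL2, the MSL protein that normal females lack. Normal diploid females and males came from the Canton S stock, so they differ from the aneuploids in the mother's strain as well as in chromosome number.

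The tables give 1 mean for each group, as CPM, which are read counts scaled by how many reads of the library were mapped, after an adjustment for sequencing batch, and no value for a single library. The labels list 3 libraries for each of the 4 trisomy 2L groups with and without MSL2 and 2 for each of the 2 metafemale groups. No error and no test between libraries can therefore be given for any value below, and the number of reads behind a mean is unknown. One table holds the trisomy 2L groups with diploids of both sexes and the other holds the metafemale groups with diploids of both sexes. Each was normalized separately, so every ratio below was taken within a table. The MSL2 libraries were sequenced in another batch than the diploids, so MSL2, cross and batch cannot be told apart when these groups are compared. The paper lists trisomy 2L and metafemale libraries sequenced with the diploids and others sequenced with the MSL2 libraries. Those listed by the labels match the latter in number, but which entered the means is not given. A part of batch in the ratios of these aneuploids to diploids can therefore not be told apart from chromosome number. For the same reason, a part of batch cannot be told apart from MSL2 where an MSL2 group is set against the same aneuploid. The fathers' stock differs there as well. The columns sum to between 882378 and 965570 CPM, except that of MSL2-metafemales, which sums to 1062350.

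The transcript of the msl-2 gene itself was listed at 8.99 CPM in diploid females, 20.1 in trisomy 2L females and 177 in MSL2-trisomy 2L females, and at 22.6, 52.8 and 266 CPM in the males of these 3 kinds. In the metafemale table it was listed at 12.3 CPM in diploid females, 6.97 in diploid males, 8.31 in metafemales and 95.3 in MSL2-metafemales. All 3 groups labelled MSL2 were thus well above the groups without the transgene in the same table.

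Oxidative phosphorylation takes place in the inner mitochondrial membrane. Complex I accepts electrons from NADH, complex III passes them on to cytochrome c, and complex IV hands them to oxygen, while ATP synthase uses the proton gradient built on the way to make ATP. Most subunits are encoded in the nucleus, on all chromosome arms of the fly, whereas a small set is encoded in mitochondrial DNA and was not analysed here. Muscle is the textbook example of a tissue rich in these complexes. Many nuclear genes for mitochondrial proteins have duplicates in the fly genome that are expressed chiefly in the testis.

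The members were abundant transcripts in every group, and together they made up 0.729% of the column in diploid females of the metafemale table and 1.55% in MSL2-trisomy 2L females. The share lay between these values in all other columns, at 1.05% and 0.984% in diploid females and males of the trisomy 2L table, 1.24% and 1.28% in trisomic females and males, and 1.08% in males with trisomy 2L and MSL2. For the metafemale table it was 0.786% in diploid males, 1.2% in metafemales and 1.08% in MSL2-metafemales. Of the 57 members, 43 had their highest mean of the trisomy 2L table in MSL2-trisomy 2L females, and 32 had their highest mean of the metafemale table in MSL2-metafemales. The MSL2-metafemale column also had the larger total, 1062350 CPM against 882378 in metafemales, and these means were not rescaled for it. Such a count was not made over all genes.

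Levels per kilobase of exon differed between the complexes. In diploid females of the trisomy 2L table the median was 89.1 CPM per kb for complex I, 110 for complex III, 298 for complex IV and 266 for ATP synthase. The order was alike in all 10 group means, with complex IV highest and complex I lowest. The highest single level per kb was that of ATPsynbeta, the catalytic subunit of ATP synthase, in all columns but that of diploid males in the metafemale table, and in MSL2-trisomy 2L females it reached 1279 CPM per kb.

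In trisomy 2L females the members as a group lay at the diploid level, while a few large subunits stood far above it. The median log2 ratio of trisomy 2L to diploid females was -0.00 over the 57 members, against -0.06 over all 11004 genes compared, and 28 of the 57 members had a ratio above 1, where the share of all genes was 47.0%. A difference of at least 1.5-fold is called below. At this limit, 9 members were higher and 2 lower in trisomy 2L females, against 25.0% and 24.1% of all genes. The sign of so small a median depends on the scaling, since it became 0.06 when the ratios were centred on the median of all genes.

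In males of the same trisomy it was 0.17, against -0.14 over all 11580 genes, and 36 of the 57 members had a ratio above 1 (44.5% of all genes). After centring, which puts as many of all genes above 1 as below 1, the count of members was 43. Here 14 members were at least 1.5-fold higher and 3 lower, where all genes gave 23.9% and 31.3%. Complex IV and ATP synthase had the highest medians, at 0.22 and 0.27, while complex I and complex III had medians of 0.08 and 0.04. In females the corresponding medians were 0.02, 0.11, -0.01 and -0.13.

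In metafemales nearly all members were higher than in diploid females. The median log2 ratio was 0.49, against -0.19 over all 10804 genes, and 53 of the 57 members had a ratio above 1 (40.4% of all genes) and 4 below 1 (59.6%). At least 1.5-fold higher were 25 members, and 0 were lower by this much, against 18.6% and 31.0% of all genes. All 7 members of complex IV and all 11 of ATP synthase were above the diploid level, with medians of 0.43 and 0.69. Complex I had a median of 0.49 and complex III of 0.74. Highest were ND-ASHI, UQCR-C1 and ND-42, an accessory subunit of complex I (1.69, 1.32 and 1.19), and lowest were ND-AGGG, UQCR-11 and ND-B15 (-0.49, -0.40 and -0.24). The plot of ratios by complex shows these medians with those of the MSL2 comparisons.

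**Figure D1:**
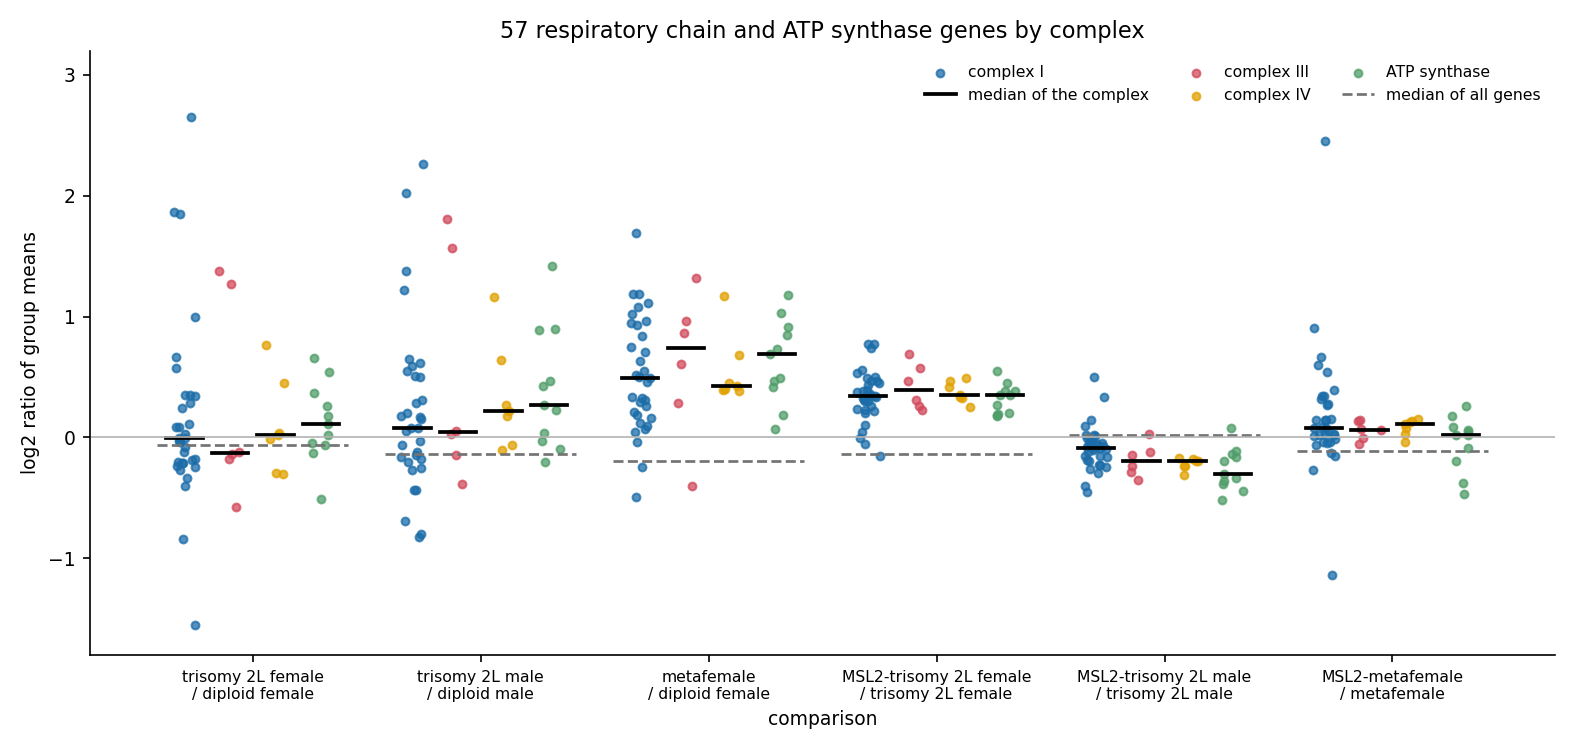
Log2 ratio of group means (y axis) for the 57 members in 6 comparisons (x axis), coloured by complex, with 1 point a gene. Black bars are the medians of each complex and dashed lines the medians of all genes. All 4 complexes lie above the dashed line in metafemales and in MSL2-trisomy 2L females, and below it in MSL2-trisomy 2L males.

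The same diploid genotypes in both tables give a measure of how far a mean can move without a change of genotype. The median log2 difference of the members between the 2 means of diploid females was -0.41 (metafemale table over trisomy 2L table), with 49 of 57 lower, and that between the 2 means of diploid males was -0.18. A difference of at least 1.5-fold in either direction was found for 18 members in diploid females (31.6%) and for 16 in diploid males (28.1%), while over all genes these shares were 50.4% and 55.2%. The 2 tables were normalized separately, and what makes these means differ was not tested. The median of 0.49 in metafemales is about as large as this difference between means of the same genotype. That of trisomy 2L males was smaller in size than the difference in diploid males. The medians of MSL2 over the same trisomy, given below, were each smaller in size than the difference in diploids of that sex.

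Markers of several tissues differed between aneuploids and diploids, also in trisomy 2L females, where the median of the members was -0.00. The 10 muscle markers, which include myosin heavy chain (Mhc), actins and troponins, summed to 13748 CPM in diploid females, 22269 in trisomy 2L females, 11179 in diploid males and 24946 in trisomy 2L males. In the metafemale table they summed to 6916 CPM in diploid females, 5152 in diploid males and 24768 in metafemales. All 10 were above the diploid level in trisomy 2L of either sex and 9 of 10 in metafemales, with median log2 ratios of 0.85, 1.11 and 1.51. The 6 glue protein genes of the salivary gland (Sgs), which are switched on during the third instar, went the other way. They summed to 28290 and 27341 CPM in diploid females and males against 8029 and 8184 in trisomic females and males, and to 41161 CPM in diploid females against 3918 in metafemales. The 7 midgut markers summed to 7345 CPM in diploid and 8570 in trisomy 2L females, to 5031 CPM in diploid and 6556 in trisomy 2L males, and to 5517 CPM in diploid females against 10893 in metafemales, where 7 of 7 were higher. The 6 fat body markers summed to 84265 against 120274 CPM in females and 72195 against 97258 CPM in males of the trisomy 2L table, and to 58356 against 58176 CPM in metafemales. The markers of these tissues were listed above 0 in every group, as were the 5 neuronal ones, which summed to between 75.7 and 153 CPM. In whole larvae, a difference in the number of cells of a type cannot be told apart from a difference in RNA per cell. The part of these tissue markers in the ratios of the members was not tested.

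Complex I is built around 7 nuclear core subunits that carry the electrons, and its remaining nuclear subunits are accessory. ND-75, a core subunit that holds iron-sulfur clusters, was listed at 21.5 CPM in diploid females, 65.5 in diploid males, 136 in trisomy 2L females and 153 in trisomy 2L males. Its log2 ratio to diploids was 2.65 in females, the largest of all members there, and 1.22 in males. Diploid females of the metafemale table had 62.2 CPM and diploid males 59.8, so the mean of diploid females in the trisomy 2L table stood apart from the other 3 diploid means.

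ND-51, the subunit that binds NADH and is encoded on 2L, was listed at 67.8 CPM in diploid females and 52.6 in diploid males, against 245 in trisomy 2L females and 252 in trisomy 2L males (log2 ratios 1.85 and 2.26). It has 2 transcripts in the tables, and they did not move together. One was listed at 37.0 and 25.9 CPM in diploid females and males and at 243 and 251 in trisomic ones, and the other fell from 30.9 and 26.8 to 1.33 and 1.61 CPM. In metafemales ND-51 was listed at 186 CPM against 96.6 in diploid females, a log2 ratio of 0.94.

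ND-39, an accessory subunit, was listed at 63.1 and 54.1 CPM in diploid females and males and at 229 and 219 in trisomic females and males (log2 ratios 1.86 and 2.02). In the metafemale table it was listed at 128 CPM in diploid females, 37.6 in diploid males and 243 in metafemales. The means of all aneuploids exceeded those of all diploids, but the diploid means themselves differed, with diploid males of the metafemale table lowest. One of its 2 transcripts has a mean in males but none in females of the trisomy 2L table, so its level there rests on different transcripts in the 2 sexes.

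The other core subunits of complex I differed less. ND-24 had log2 ratios of 0.24 in females and 0.50 in males of trisomy 2L and of 1.11 in metafemales, and ND-30 had 0.03, 0.20 and 0.71 in the same order. ND-23 and ND-20 had ratios of -0.18 and -0.21 in trisomic females, -0.12 and -0.14 in trisomic males, and 0.84 and 0.50 in metafemales. ND-49, encoded on chromosome 4, was the only core subunit called lower in a trisomic group, at 152 CPM in diploid males and 85.8 in trisomy 2L males (log2 ratio -0.82). Over the 7 core subunits the median was 0.03 in trisomic females, 0.20 in trisomic males and 0.84 in metafemales, and over the 26 accessory subunits it was -0.02, 0.08 and 0.33.

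In complex III, the 2 large core proteins stood apart from the small subunits in trisomy 2L. UQCR-C1 was listed at 153 and 128 CPM in diploid females and males and at 399 and 450 in trisomic females and males, and at 167 CPM in diploid females against 417 in metafemales. Its log2 ratios were 1.38, 1.81 and 1.32. UQCR-C2 was listed at 83.0 and 81.4 CPM in diploids and at 201 and 241 in trisomy 2L, and at 149 against 273 in metafemales (log2 ratios 1.27, 1.57 and 0.87). The means of the diploid females and males lay below those of the aneuploids in both tables for both proteins. The 4 small subunits had ratios between -0.57 and 0.06 in trisomy 2L, and between -0.40 and 0.96 in metafemales, where UQCR-14 was above UQCR-C2.

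Complex IV is assembled around a core encoded in mitochondrial DNA, and COX4, COX5A and COX5B are among its nuclear subunits. COX4, encoded on 2L, was listed at 310 and 246 CPM in diploid females and males and at 525 and 552 in trisomic females and males (log2 ratios 0.76 and 1.16), and at 347 CPM in metafemales against 216 in diploid females (0.68). COX5B, also on 2L, had ratios of 0.45, 0.64 and 0.43 in the same order. COX5A, on 3R, had ratios of 0.04, 0.27 and 0.40. COX4 was the only subunit of complex IV called higher in both sexes of trisomy 2L.

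In ATP synthase the catalytic subunit ATPsynbeta was listed at 1520 and 1304 CPM in diploid females and males and at 2392 and 2409 in trisomic females and males (log2 ratios 0.65 and 0.89), and at 1427 CPM in metafemales against 886 in diploid females (0.69). ATPsyngamma, the rotating shaft, had log2 ratios of 0.54, 0.90 and 0.19, and ATPsynC, the subunit of the membrane ring, had 0.26, 0.23 and 1.18. ATPsynO, which links the head to the stator, had 0.02, 0.27 and 0.84. The large and small subunits of this enzyme therefore did not share a ratio in any of the 3 aneuploids. ATPsynB, of the stator, was listed at 36.7 CPM in diploid males of the trisomy 2L table and between 98 and 255 in the other 9 means, so its log2 ratio of 1.42 in trisomy 2L males rests on 1 low diploid mean.

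A few subunits were lower in aneuploids. ND-AGGG, a small accessory subunit of complex I, was listed at 126 and 122 CPM in diploid females and males and at 70.4 and 69.9 in trisomic females and males, and at 99.1 against 70.5 in metafemales. Its log2 ratios were -0.84, -0.80 and -0.49, the lowest or second lowest of the members in each of these comparisons. UQCR-11, a small subunit of complex III, had log2 ratios of -0.57, -0.38 and -0.40, and ND-MWFE of complex I had -0.41, -0.69 and 0.12. The lowest ratio in trisomy 2L females was that of ND-B16.6, at 112 CPM in diploid and 38.3 CPM in trisomy 2L females (-1.55). This gene was also listed at 22 CPM in diploid females of the metafemale table, below every aneuploid mean but that of MSL2-metafemales. The plot of 10 members by group shows the genes that stood highest and lowest.

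**Figure D2:**
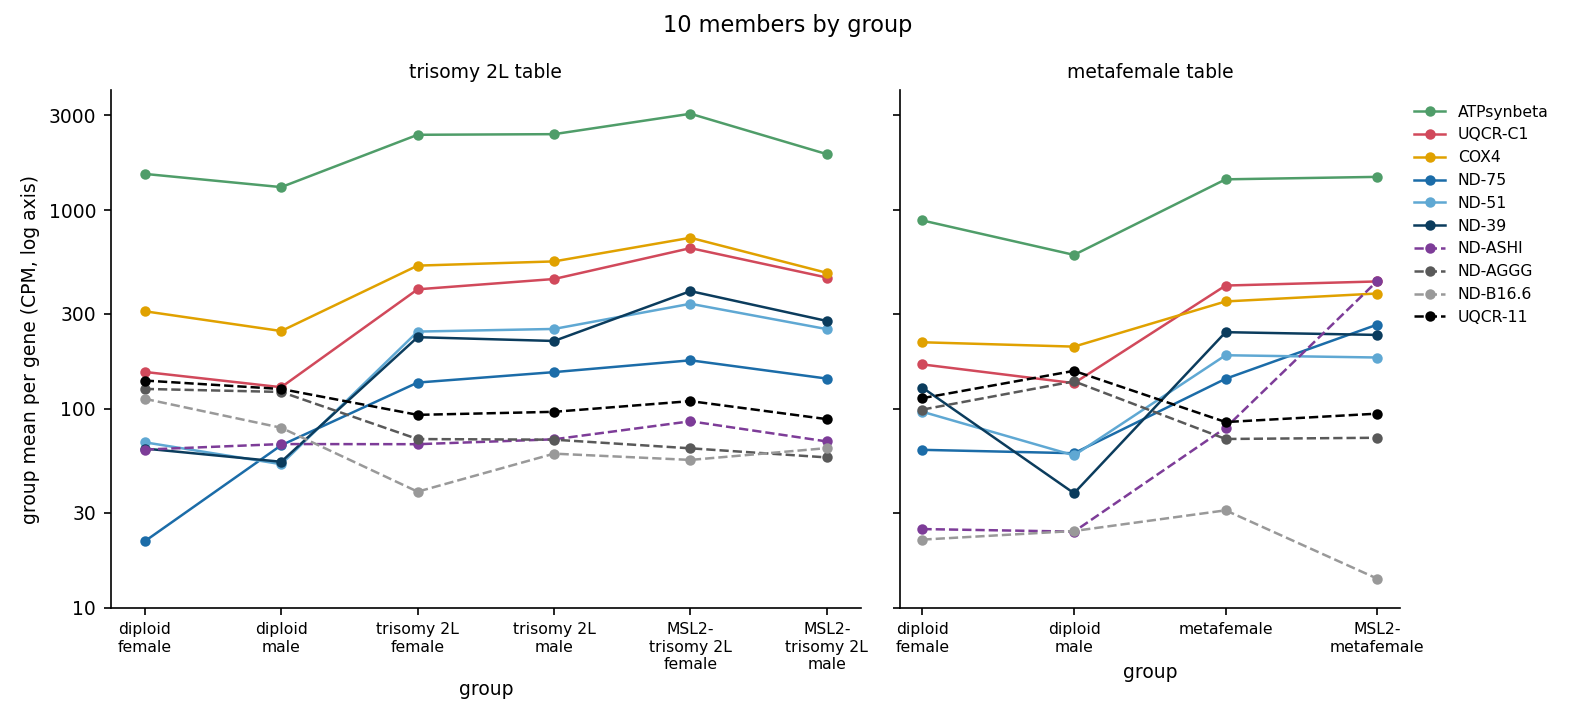
Group means in CPM on a log axis (y axis) of 10 members in the 6 groups of the trisomy 2L table and the 4 of the metafemale table (x axis), with lines that only join the points of 1 gene. ATPsynbeta, UQCR-C1, COX4, ND-75, ND-51 and ND-39 lie higher in aneuploids than in diploids of the same sex and table, and ND-AGGG and UQCR-11 lie lower.

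ND-AGGG (3L, 24976254 to 24977118) and UQCR-11 (3L, 25120709 to 25126171, both in Release 6 coordinates) lie in the part of 3L next to the centromere. With ND-MLRQ (23339326 to 23345936) they are the only members beyond 23.0 Mb of 3L, a limit chosen after their values were seen. Their median log2 ratio was -0.57 in trisomic females, -0.38 in their male counterparts and -0.40 with 3 X chromosomes, while the 9 members on the rest of 3L had medians of -0.18, -0.07 and 0.52. Over all genes beyond the same limit the medians were -0.79 (38 genes), -0.63 (39 genes) and -0.60 (38 genes), and over the rest of 3L they were -0.21, -0.33 and -0.30. ND-AGGG and UQCR-11 were below the diploid level in all 3 aneuploids, while ND-MLRQ was at -0.24 and -0.06 in females and males of trisomy 2L and at 0.21 in metafemales.

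Ratios were also compared by chromosome, without a test of the difference between arms. Of the 11 members on 2L, 10 had a ratio above 1 in trisomy 2L females and 11 in trisomy 2L males, with median log2 ratios of 0.45 and 0.62. Among all 2L genes, 64.9% and 57.9% had a ratio above 1. A ratio in proportion to the gene copies, 3 to 2, would be 1.5. The 34 members on 2R, 3L, 3R and 4 had medians of -0.10 and -0.04, and 12 and 16 of them a ratio above 1, against 40.8% and 39.3% of all genes on these arms. The 12 members on X had medians of 0.01 and 0.07, with 6 and 9 of them above 1, against 51.0% and 50.1% of all X genes.

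The members on 2L ranged widely. In trisomy 2L females, ND-51 and ND-B17 were highest, at log2 ratios of 1.85 and 1.00, followed by COX4 (0.76), ND-15 (0.67), ND-PDSW (0.58), COX5B (0.45), ATPsynG (0.37), ND-13A (0.35) and ND-B14.5B (0.29). ND-B17.2 was at 0.11 and ND-B22 at -0.00. In males the same genes spanned 0.08 (ND-B17.2) to 2.26 (ND-51), with ND-B17 at 1.37, COX4 at 1.16, ND-PDSW at 0.65, COX5B at 0.64, ND-B22 at 0.62, ND-15 at 0.59, ATPsynG at 0.43, ND-B14.5B at 0.31 and ND-13A at 0.15. Both sexes thus had the same 3 genes on top, and ND-B17.2, an accessory subunit of complex I, near the diploid level.

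In metafemales the members on X stood above the others. All 12 had a ratio above 1, against 61.6% of all X genes. At least 1.5-fold higher were 10, against 18.6% of the genes of all chromosomes together. The median log2 ratio of these 12 members was 0.99. They ranged from 0.49 for ND-B16.6 to 1.69 for ND-ASHI, an accessory subunit of complex I listed at 24.8 CPM in diploid females and 80.2 CPM in metafemales. The 11 members on 2L had a median of 0.31 and the 34 on the other autosomes of 0.43. Here 10 of 11 and 31 of 34 had a ratio above 1, against 36.0% and 36.3% of all genes on the same arms. The plot of ratios by chromosome shows both patterns.

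**Figure D3:**
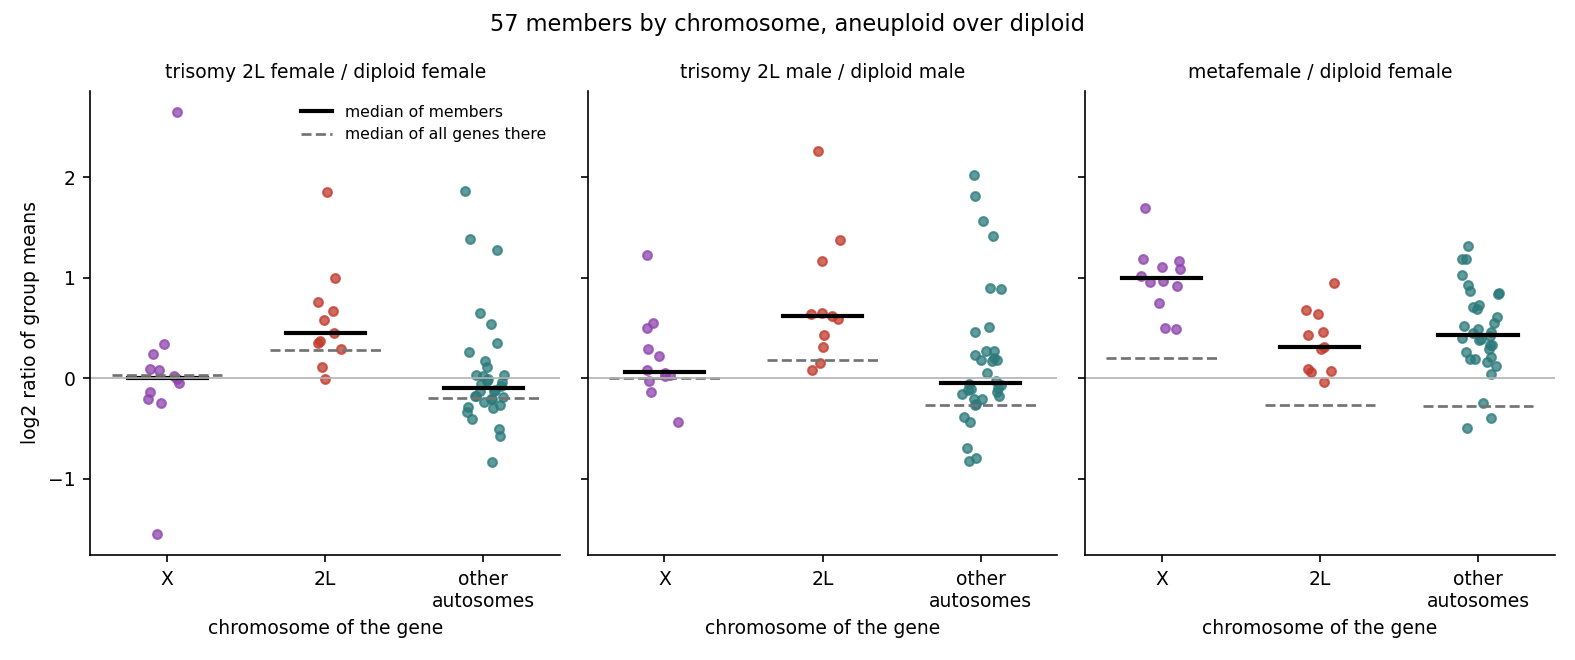
Log2 ratio of aneuploid to diploid means (y axis) for the 57 members by chromosome (x axis), in the 3 aneuploid groups without MSL2, with 1 point a gene. Black bars are medians of the members and dashed lines medians of all genes on the same chromosomes. The bar of 2L lies at 0.45 and 0.62 in trisomy 2L, and that of X at 0.99 in metafemales.

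Female and male trisomy 2L larvae were compared with separate diploid means, and the members moved alike in both. Of the 57 members, 27 had a ratio above 1 in both sexes, 20 below 1 in both, 9 only in males and 1 only in females. Over 10944 genes, 36.7% had a ratio above 1 in both sexes and 10.2% above 1 in females and below 1 in males. The other shares and the correlation were not computed over all genes. Spearman's rho between the 2 sets of ratios was 0.84 over the 57 members and Pearson's r was 0.82, given as a description, since the members share tables, batch adjustment and transcript lengths. The ratio of males exceeded that of females in most members, with a median log2 difference (females minus males) of -0.16, against -0.02 over all genes.

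Longer genes had higher ratios to diploids. Over the 57 members, Spearman's rho between the log2 ratio and the exon length was 0.41 in trisomic females, 0.40 in trisomic males and 0.38 in metafemales, against 0.23, 0.27 and 0.12 over all genes. The 11 members with over 1500 bp of exon had median log2 ratios of 0.65, 0.89 and 0.93, and the 24 members under 800 bp had -0.05, 0.04 and 0.39. In the 3 comparisons of MSL2 with the same aneuploid, rho was 0.08, 0.21 and -0.14. The diploid libraries were sequenced from single ends with shorter reads and the MSL2 libraries from both ends, and the part of read type and batch in the relation with length was not tested.

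With MSL2, almost all members had higher means in trisomy 2L females. Their median log2 ratio to trisomy 2L females was 0.34, against -0.14 over all 10352 genes, and 54 of the 57 members had a ratio above 1 (39.8% of all genes). The step was small and even: 4 members were at least 1.5-fold higher, against 10.8% of all genes, and 0 were lower by this much, against 21.5%. When the ratios were centred on the median of all genes, 17 members were at least 1.5-fold higher. The share of all genes past this limit was not recomputed after centring. The medians were 0.34 for complex I, 0.39 for complex III, 0.35 for complex IV and 0.35 for ATP synthase, and the middle 50% of the members lay between 0.25 and 0.46.

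The 3 largest ratios were those of ND-19, ND-39 and ND-B14, all accessory subunits of complex I. ND-19 was listed at 49.3 CPM in trisomy 2L females and 84.3 with MSL2 (log2 ratio 0.77), ND-39 at 229 and 391 CPM (0.77) and ND-B14 at 50.3 and 83.7 CPM (0.74). UQCR-C1 followed, at 399 and 643 CPM (0.69). The 3 members with a ratio below 1, where 60.2% of all genes were, were ND-AGGG (-0.15), ND-15 (-0.05) and ND-B22 (-0.01). ND-B22 kept its sum of 96.7 and 96.3 CPM while its 2 transcripts changed places, from 56.4 to 3.2 CPM and from 40.3 to 93.1 CPM.

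The difference in females was of like size on all large chromosome arms, with a median log2 ratio of 0.38 for the 12 members on X, 0.34 for the 11 on 2L, 0.33 for the 9 on 2R, 0.38 for the 12 on 3L and 0.33 for the 11 on 3R, and it was 0.20 for the pair on chromosome 4. All 12 members on X had a ratio above 1, against 47.8% of all X genes. So did 42 of the 45 autosomal members, against 37.9% of all 2L genes and 38.3% of all genes on the other autosomes.

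In males the members were slightly lower with MSL2. Their median log2 ratio to trisomy 2L males was -0.15, against 0.02 over all 11695 genes, and 48 of the 57 members had a ratio below 1, where the share of all genes was 46.9%. None reached 1.5-fold in either direction (0 and 0 of 57), against 8.13% and 8.46% of all genes. ATP synthase had the lowest median at -0.31, with complex III and complex IV at -0.19 each and complex I at -0.08. ATPsyngamma was lowest of all members, at 401 CPM in trisomy 2L males and 280 with MSL2 (-0.52), followed by ND-MNLL (-0.45) and ATPsynCF6, the coupling factor (-0.44). ATPsynbeta was listed at 2409 CPM without and 1911 with MSL2 (-0.33). Highest were ND-B22, at 139 and 198 CPM (0.50), ND-39 (0.33) and ND-B14 (0.14).

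Females and males thus lay on opposite sides of 1 for most members. A ratio above 1 in females and below 1 in males was found in 46 of the 57 members, and in 17.9% of all genes. The log2 ratio of females exceeded that of males in 55 members, with a median difference of 0.53, against -0.16 over all genes. No library values were at hand to test this difference. The 2 exceptions were ND-B22 and ND-15. The plot of female against male ratios shows both sexes together.

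**Figure D4:**
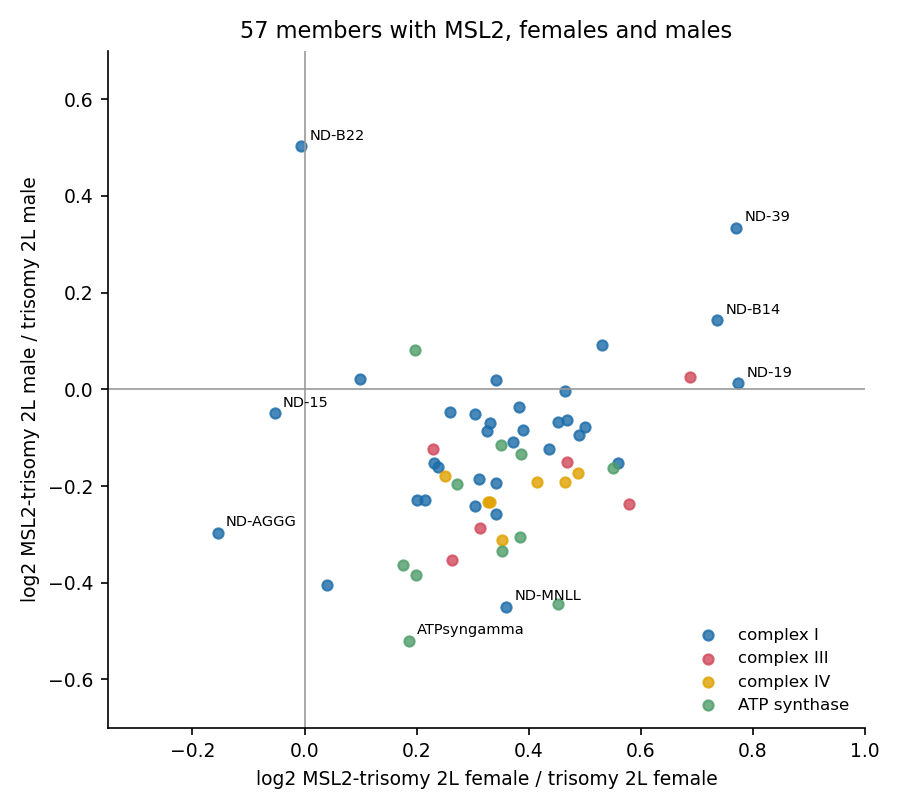
Log2 ratio with MSL2 over without MSL2 in trisomy 2L females (x axis) and males (y axis) for the 57 members, with 1 point a gene coloured by complex. The lower right holds 46 of the 57 members, higher in females and lower in males, and ND-B22 stands alone at the upper left.

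In each sex the muscle markers moved in the same direction as the members. They summed to 22269 CPM in trisomy 2L females and 35763 with MSL2, and to 24946 CPM in trisomy 2L males and 18695 with MSL2. In females 8 of the 10 and in males 1 of the 10 had a ratio above 1, with medians of 0.65 and -0.49. The glue genes went the other way, from 8029 to 791 CPM in females and from 8184 to 11093 CPM in males. All 7 midgut markers were lower with MSL2 in females, with a sum of 8570 CPM without and 3599 with MSL2, and 5 of 7 were higher in males, with sums of 6556 and 6880 CPM. The fat body markers summed to 120274 CPM without and 125731 with MSL2 in females, and to 97258 and 95816 CPM in males. The neuronal markers rose in both sexes, from 77.8 to 106 CPM in females and from 94.8 to 145 CPM in males. The part of all these markers in the ratios of the members was not tested.

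Metafemales with and without MSL2 differed little in the members. Here the median log2 ratio of MSL2-metafemales to metafemales was 0.07, against -0.11 over all 9964 genes, and 41 of the 57 members had a ratio above 1 (38.2% of all genes), but with equal column totals, which moved the median of all genes by -0.27, the median of the members became -0.20 and 10 of the 57 had a ratio above 1. As deposited, 16 members had a ratio below 1, against 61.8% of all genes. At least 1.5-fold higher were 4 members and lower was 1, against 10.3% and 15.3% of all genes. The 4 were ND-ASHI, ND-75, ND-B17.2 and ND-MLRQ, all of complex I by name, and the 1 was ND-B16.6.

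ND-ASHI was listed at 80.2 CPM in metafemales and 439 in MSL2-metafemales, a log2 ratio of 2.45, while its other 8 means lay between 24.1 and 86.5 CPM. Of its 3 transcripts, 1 accounted for nearly all of this, with 74.9 CPM in metafemales and 438 in MSL2-metafemales. ND-75 was listed at 142 and 265 CPM (0.91), ND-B17.2 at 62.0 and 98.6 CPM (0.67) and ND-MLRQ at 188 and 286 CPM (0.60). ND-B16.6 was listed at 30.8 and 14 CPM (-1.14), and its 3 transcripts were all lower with MSL2. Next lowest were ATPsyngamma (-0.47) and ATPsynB (-0.37). ND-ASHI, ND-75 and ND-B16.6 lie on X, where the median of the 12 members was 0.08 and 9 of them had a ratio above 1 (40.2% of all X genes). On 2L, 9 of 11 members had a ratio above 1 (36.6% of all 2L genes).

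Set against diploids, the members of MSL2-trisomy 2L females had a median log2 ratio of 0.32 and those of MSL2-metafemales of 0.66, while those of MSL2-trisomy 2L males had -0.02. The medians of all genes were -0.17, -0.34 and -0.11. In MSL2-trisomy 2L females 50 members had a ratio above 1 and 7 below 1, against 44.0% and 56.0% of all genes, with 11 of 12 above 1 on X (50.2%) and 10 of 11 on 2L (56.1%). A ratio above 1 was found in 51 members of MSL2-metafemales (36.6%) and 28 of MSL2-trisomy 2L males (45.8%). In MSL2-trisomy 2L females 18 members were at least 1.5-fold higher and 2 lower, against 26.7% and 34.9% of all genes. In MSL2-metafemales the counts were 29 and 1, against 19.9% and 39.3%, and in MSL2-trisomy 2L males 10 and 4, against 26.2% and 31.3%. Highest in MSL2-trisomy 2L females were ND-75 (3.02), ND-39 (2.63) and ND-51 (2.32), and lowest were ND-B16.6 (-1.02), ND-AGGG (-0.99) and UQCR-11 (-0.34). For males of the same kind these were ND-39 (2.35), ND-51 (2.26) and UQCR-C1 (1.83), and ND-49 (-1.22), ND-AGGG (-1.09) and ND-MWFE (-0.95). ND-ASHI (4.14), ND-75 (2.09) and UQCR-C1 (1.39) led in MSL2-metafemales, and ND-B16.6 (-0.65), ND-AGGG (-0.47) and ND-B15 (-0.28) stood last. The members on the trisomic arm had the higher medians, at 0.75 and 0.54 for 2L in MSL2-trisomy 2L females and males and at 1.12 for X in MSL2-metafemales.

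Between diploid males and females, the members differed little. The median log2 ratio of males to females was -0.05 in the trisomy 2L table, against 0.14 over all genes, and 0.23 in the metafemale table, against -0.08. In the first of these tables, 2 members were at least 1.5-fold higher in males (ND-75 and ND-13A) and 1 lower (ATPsynB), where all genes gave 27.8% and 8.66%. In the other table, 7 were higher and 4 lower, against 21.3% and 18.5%. ND-39, ND-51, ATPsyngamma and ATPsynB were the 4 lower ones, at log2 ratios of -1.76, -0.73, -0.64 and -0.62, and ND-B12, ND-B15 and ND-MWFE were highest, at 0.90, 0.75 and 0.74. The direction of the members as a group was thus opposite in the 2 tables.

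The 16 L copies behaved unlike the genes they are named after. In diploid females of the trisomy 2L table they were listed between 0 and 0.589 CPM, with a median of 0.154, and in diploid males between 4.19 CPM (ND-20L) and 57.4 CPM (ND-49L), with a median of 21.8. ATPsynbetaL was listed at 0 in females and 13.7 CPM in males. In the metafemale table, which does not list ATPsynbetaL, the other 15 copies were listed between 0 and 0.640 CPM in diploid females and between 1.78 and 39.6 CPM in diploid males. The L copies that reached the minimum mean of 1 CPM over a table did so only through the males, so no ratio between the sexes is summed up over them. Highest there was COX7AL, at 0.294 CPM in diploid females and 39.6 in diploid males.

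Each of 14 L copies can be set beside the member it is named after, per kilobase of exon. In diploid males of the trisomy 2L table the L copy accounted for a median of 20.5% of the level of its pair, from 1.21% for ATPsynbetaL to 31.6% for ND-51L2. In diploid females the median was 0.136%. ND-49L had 33.8 CPM per kb in diploid males beside 95.1 for ND-49, and COX7AL had 82.5 beside 370 for COX7A. In diploid males of the metafemale table the median was 17.6% over 13 pairs.

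In trisomy 2L males the L copies were lower than in diploid males. The median log2 ratio was -0.98, 14 of the 16 had a ratio below 1 (55.5% of all genes) and 11 were at least 1.5-fold lower (31.3% of all genes). COX4L was listed at 18.7 CPM in diploid males, 5.51 in those with trisomy 2L and 5.42 with MSL2 added, UQCR-14L at 21.2, 5.95 and 7.05, and COX7AL at 48.4, 16.8 and 16.2. The exceptions were ATPsynbetaL, at 13.7, 39.6 and 49.7 CPM, and ND-20L, at 4.19, 5.10 and 13.9 CPM. Their share of the pair had a median of 7.05% in trisomy 2L males and of 8.97% with MSL2. Males with and without MSL2 differed little, with a median log2 ratio of -0.04 and a sum of 239 CPM against 233.

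The male germline markers moved with the L copies. The 13 markers, which include the testis tubulin betaTub85D and meiotic arrest genes such as can and aly, summed to 1107 CPM in diploid males, 666 in those with trisomy 2L and 799 with MSL2 added. In trisomy 2L males 10 of the 13 were below diploid males, with a median log2 ratio of -0.68. In females they summed to between 2.04 and 15.4 CPM, and in diploid males of the metafemale table to 1086 CPM. The part of the male germline in the ratios of the L copies was not tested.

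In females with MSL2 most L copies had no mean at all. Of the 16 copies, 15 had a mean in trisomy 2L females and 5 in MSL2-trisomy 2L females, and their sum went from 2.64 to 0.416 CPM. Of 15 copies, 15 had a mean in metafemales and 4 in MSL2-metafemales, where ND-51L2 is listed at a value near 0. UQCR-11L was the highest of those left, at 0.557 CPM without and 0.346 with MSL2 in trisomy 2L females and at 0.575 and 0.519 CPM in metafemales. All these levels are under 1 CPM, and values not above 0 had been removed before the means were taken, so a missing mean says only that no value was kept. Fewer transcripts of all genes had a mean with MSL2 too. Of 28705 in the trisomy 2L table, 26120 had a mean in trisomy 2L females and 21694 in MSL2-trisomy 2L females. Of 23991 in the metafemale table, 23657 had a mean in metafemales and 20127 in MSL2-metafemales. The plot of the L copies shows every mean.

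**Figure D5:**
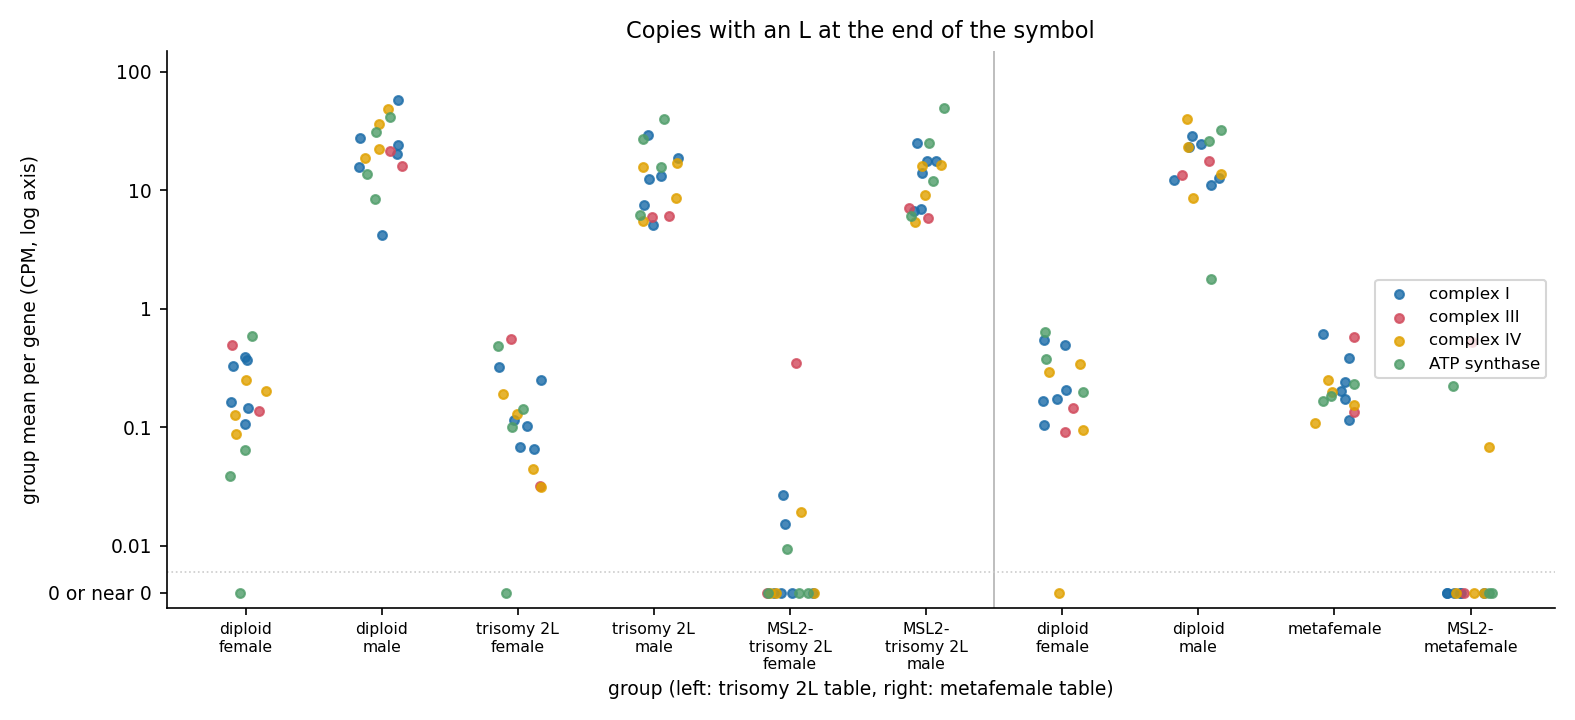
Group means in CPM on a log axis (y axis) of the L copies in the 10 group columns (x axis), coloured by complex, with 1 point a gene and copies at 0 or near 0 drawn on the lowest line. All means of males lie above 1 CPM, and all means of females lie under 1 CPM.

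Genes of the same pathway that the name rule does not take were read from lists. The 7 other nuclear subunits of complexes III to V had median log2 ratios of -0.10 in trisomic females, 0.33 in trisomic males (6 compared) and 0.74 in metafemales, and 0.40, -0.22 and 0.05 in the corresponding MSL2 comparisons. Among them, blw encodes the alpha subunit of ATP synthase, the partner of ATPsynbeta. It was listed at 489 and 423 CPM in diploid females and males, 1141 and 1238 in trisomy 2L, and 2201 and 1130 with MSL2, and at 376 CPM in diploid females, 1156 in metafemales and 1154 in MSL2-metafemales. RFeSP, the Rieske iron-sulfur protein of complex III on 2L, had ratios of 1.69 and 2.1 in trisomy 2L females and males.

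Enzymes that feed the chain were read in the same way. Of 14 genes of the TCA cycle and pyruvate dehydrogenase, 9 were at least 1.5-fold higher in trisomic females, 11 in trisomic males and 11 in metafemales, where all genes gave 25.0%, 23.9% and 18.6%. Their median log2 ratios were 0.82, 1.39 and 1.26. Citrate synthase (kdn) was listed at 94.4 and 81.7 CPM in diploid females and males, 289 and 341 in trisomy 2L, and 544 and 296 with MSL2. With MSL2 these 14 genes had medians of 0.64 in females, -0.13 in males and -0.00 in metafemales. Complex II, the succinate dehydrogenase that feeds electrons from the TCA cycle into the chain, gave medians of 0.19, 0.40 and 0.71 against diploids over SdhA, SdhB, SdhC and SdhD, and SdhA was highest in each. With SdhAL and SdhBL, which were under 1 CPM in all females, the listed 6 genes gave 0.34, 0.07 and 0.77.

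Of 12 glycolytic enzymes, 11 were at least 1.5-fold higher in trisomy 2L females and 11 in trisomy 2L males (25.0% and 23.9% of all genes), with medians of 1.02 and 1.61. The 71 mitochondrial ribosomal proteins, which translate the mitochondrially encoded subunits, had medians of -0.30 in trisomy 2L of both sexes and -0.23 in metafemales, with 18 of 70, 25 of 70 and 15 of 70 above the diploid level, against 47.0%, 44.5% and 40.4% of all genes. With MSL2 in females they had a median of 0.25, and 61 of 71 were higher (39.8% of all genes). The 8 assembly factors had medians of 0.08 and 0.06 in trisomy 2L females and males. Proteasome subunits, a large complex outside mitochondria, had medians of -0.50 and -0.65 in trisomy 2L females and males, -0.37 with MSL2 in females and 0.21 with MSL2 in males.

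Cytochrome c carries electrons from complex III to complex IV. Cyt-c-p, the somatic form, was listed at 120 and 101 CPM in diploid females and males, 221 and 241 in trisomy 2L, and 419 and 214 with MSL2, and at 63.9 CPM in diploid females, 84.3 in metafemales and 49.3 in MSL2-metafemales. Cyt-c-d, the form of the male germline, was listed at 138 CPM in diploid males and 77.5 in trisomy 2L males and under 1 CPM in all females. Its pattern across groups was like that of the L copies.

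Some members share their exons with other genes, and the counting is not stated to use strand. All exon bases of ND-MNLL are shared with CG45089 on the same strand, and all those of UQCR-14 and of COX5BL with CG32576 and Trmt6 on the opposite strand. In ND-B16.6, ND-B22, ATPsyndelta and UQCR-6.4 the shared part on the opposite strand was 17.5%, 26.1%, 35.6% and 40.5% of the exon. The values of these genes may therefore include reads of their neighbours.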

How the data were processed

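Whole larvae were sequenced, and per the labels the reads were handled with CASAVA, HISAT2, SAMtools and StringTie. The authors counted reads per transcript on Release 6 of the genome, divided by mapped reads to give CPM, used ComBat on a log scale to adjust for batch, left out values that were 0 or less, and averaged replicates before the tables were deposited. The MSL2-metafemale column sums to 1062350, so this deposited column was read as a signal on the CPM scale. Depth is unknown. The 11 deposited columns of ratios between groups are the authors' own comparisons and were not used. Which libraries entered the trisomy 2L and metafemale means is not given in the sources used here, and the diploid libraries are not among the listed samples.

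Transcripts were summed per gene (1 and 2 rows of the trisomy 2L and metafemale tables name no gene and were left out), a missing mean counting as 0, and log2 ratios were taken for all genes whose mean over the table was 1 CPM or more with a value above 0 in both groups. No test was possible with 1 mean per group. ND-MNLL, whose name ends in L, is the MNLL subunit and no L copy. Coordinates are those of the tables, and exons came from BDGP6.54, the same assembly. Named were the 3 members with the largest and the 3 with the smallest ratio in each comparison, the core subunits of complex I, UQCR-C1 and UQCR-C2, COX4, COX5A and COX5B, ATPsynbeta, ATPsyngamma, ATPsynC and ATPsynO, and all members on 2L. The part of 3L beyond 23.0 Mb and other genes singled out besides were chosen after their values were seen. Members, lists and comparisons were chosen with earlier results of these data known. The alternatives were equal column totals, centring on the median of all genes, a pseudocount of 1 CPM, a minimum of 10 CPM or none, only rows with both means, only the row of highest mean, a 2-fold limit and members without L copies. Rows with a mean in all groups, and complex II without SdhAL and SdhBL, were added after seeing the data. The code was checked on simulated data and ran under Python 3.11.15 with pandas 2.3.3 and numpy 2.4.6, scipy 1.17.1 for correlations and matplotlib 3.10.9 for plots.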

Additional observations from a re-analysis of the deposited data

Results flagged for a closer look

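The ratios of the members with over without MSL2 lay on opposite sides of 1 in females and males of trisomy 2L. The log2 ratio with over without MSL2 was higher in females than in males by a median of 0.53 over the 57 members, with 46 of the 57 above 1 in females and below 1 in males. The difference was not tested, because the tables hold 1 mean for each group. A part of batch and the fathers' stock cannot be told apart from MSL2 in these ratios. As deposited, the median of each sex was smaller in size than the difference of the members between the tables in diploids of that sex. In each sex the sum of the muscle markers moved in the same direction as the members, as given in the report. The sums of the glue genes and of the midgut markers moved the other way. That of the fat body markers moved with the members in each sex, and that of the neuronal markers rose in both sexes. The part of these markers was not tested.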

How the results depend on the processing

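Values rest on 1 mean per group. No paired analysis was possible because the tables hold no values of single libraries, and for the same reason no fit without a replicate and no replicate block was run. Of the medians recomputed under the alternatives, 168 stayed within the rank interval of the main median and 17 moved outside it. The remaining 2 changed sign where the main interval held only values of 1 sign. Sign changes of medians whose interval held both signs were not counted apart. The 2 were those of MSL2-metafemales over metafemales with equal column totals, at -0.21 over the 60 genes of the name rule that could be compared and -0.20 over the members, since the column totals were 1062350 with and 882378 without MSL2, the highest and the lowest of all columns. With equal column totals, the medians of the members also became 0.29 in MSL2-trisomy 2L females and -0.21 in MSL2-trisomy 2L males (-0.18 over all 73 genes) against the same trisomy without MSL2, and 0.47 in MSL2-metafemales over diploid females, over the members and over all genes of the name rule alike. Centring on the median of all genes gave 0.31 for the members in trisomy 2L males, 0.65 for all genes of the name rule in metafemales, 0.48 and 0.47 for members and all in MSL2-trisomy 2L females over trisomy 2L females, and 0.18 and 0.17 in MSL2-metafemales over metafemales. Against diploids it gave 0.49 for all in MSL2-trisomy 2L females and 1.00 for members and for all in MSL2-metafemales, where the pseudocount gave 0.48 for all. In diploid males over diploid females of the trisomy 2L table it gave -0.20 for the members and -0.0901 for all. For these moves the cause was not tested beyond the shift itself. Of the counts past the fold limit, 318 stayed within 1.5 times and 100 did not, 26 of them at the 2-fold limit. With centring, members at least 1.5-fold higher went from 4 to 17 in MSL2-trisomy 2L females over trisomy 2L females and from 29 to 46 in MSL2-metafemales over diploid females. With equal totals, members at least 1.5-fold lower went from 4 to 7 in MSL2-trisomy 2L males over diploid males, and in MSL2-metafemales over metafemales from 1 to 3, while those higher went from 4 to 2. Shares of all genes past the fold limit were not recomputed under these alternatives. The filters on low values and the choice of rows moved no median past its interval.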
